A study of Bos taurus with 30 samples.

Results

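TXNIP, the arrestin-domain genes ARRDC1 to ARRDC4, and MLX and MLXIP were followed through the 30 libraries of a bovine endometrium-on-a-chip study. The rows were taken by gene symbol from both count tables of the study, and 7 of the 27607 genes in each table carried one of these names. TXNIP has the identifier ENSBTAG00000020060, ARRDC1 ENSBTAG00000012147, ARRDC2 ENSBTAG00000039335, ARRDC3 ENSBTAG00000007116, ARRDC4 ENSBTAG00000018252, MLX ENSBTAG00000046670 and MLXIP ENSBTAG00000004189. All 7 passed the filter on low counts in every comparison.

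MondoA, the protein encoded by MLXIP, pairs with MLX and moves to the nucleus when glucose 6-phosphate accumulates in the cell. The pair binds carbohydrate response elements, and TXNIP and ARRDC4 are its best known targets, so that the transcripts of these genes are widely used as a readout of glucose entering a cell. TXNIP and the ARRDC proteins are alpha-arrestins, adaptors that bring HECT-type ubiquitin ligases to membrane proteins. TXNIP also binds thioredoxin and lowers glucose uptake by promoting the internalization of the glucose transporter GLUT1.

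Primary epithelial and stromal cells were isolated from uteri that were not pregnant and, by the look of the corpus luteum, in the early luteal phase, and were separated by filtering and plating. Epithelial cells filled the upper chamber and stromal cells the lower chamber of the device, with a porous membrane between them. In the glucose experiment (12 libraries), medium with 5 mM or 50 mM glucose flowed through the device for 72 hours. In the insulin experiment (18 libraries), the medium held 5 mM glucose per the study's methods and carried vehicle (acetic acid in PBS), 1 ng/mL or 10 ng/mL insulin. Each of the 10 groups of cell type and treatment held 3 replicates, numbered 1 to 3. The labels do not state which animals stand behind a replicate number, so the p-values describe these samples only. The edgeR fits draw the variance of each gene toward that of all genes. Their p-values, standard errors and intervals therefore do not measure the spread between the 3 replicates of a gene alone. The libraries held 13493503 to 16647701 counted reads in the glucose experiment and 8826470 to 13214728 in the insulin experiment. Levels are given in CPM, the count of a gene scaled to the total of counted reads in its library. They were not divided by transcript length and are therefore compared between libraries, not between genes. In such bulk samples, fewer cells of a type and less RNA per cell cannot be told apart.

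The cell type labels were checked with 10 epithelial and 10 stromal marker genes. The summed epithelial markers were at 6498 to 14164 CPM in the epithelial libraries, 1.23 to 281 CPM in the stromal insulin libraries, 75.5 to 491 CPM in the stromal libraries at 5 mM glucose, and 923 to 4384 CPM in those at 50 mM. The stromal library of replicate 3 at 50 mM held the highest of these stromal values and the lowest summed stromal markers of the stromal libraries (18097 CPM, against 46841 to 79919 CPM in the others). The epithelial library of replicate 2 at 5 mM also stood apart from its group, with summed epithelial markers of 14164 CPM against 6498 to 7786 CPM in the other epithelial libraries of the glucose experiment, and with the lowest ARRDC3 level of all 30 libraries. Since replicates were paired in the fits, leaving out either library was the same as leaving out its replicate number. The epithelial libraries held 976 to 5789 CPM of the summed stromal markers. In the glucose experiment these were 4194, 2703 and 1246 CPM at 5 mM and 5789, 5013 and 1824 CPM at 50 mM in replicates 1 to 3. Their part in the epithelial glucose comparisons was not tested. The leukocyte markers summed to 2.26 to 16.3 CPM, and the endothelial markers to 1.15 to 76.7 CPM, of which VWF alone reached 76.1 CPM.

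By group means, TXNIP was present at a higher level in the glucose experiment than in the insulin experiment, and in the glucose experiment it differed more between replicates than between treatments. In epithelial cells, TXNIP was at 97.5, 164 and 471 CPM in replicates 1 to 3 at 5 mM glucose and at 111, 198 and 437 CPM at 50 mM. In stromal cells, it was at 51.0, 108 and 227 CPM at 5 mM and at 74.5, 112 and 398 CPM at 50 mM. Replicate 3 was the highest and replicate 1 the lowest library in all 4 of these groups, and the ranges of the groups overlapped. Ordered by their means, the groups were epithelial cells at 50 mM with 249 ± 169 CPM (SD, n = 3), then epithelial at 5 mM with 244 ± 199 CPM (SD, n = 3), stromal at 50 mM with 195 ± 177 CPM (SD, n = 3) and stromal at 5 mM with 128 ± 89.6 CPM (SD, n = 3). No neighbours in this order differed by more than their SD.

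**Figure D1:**
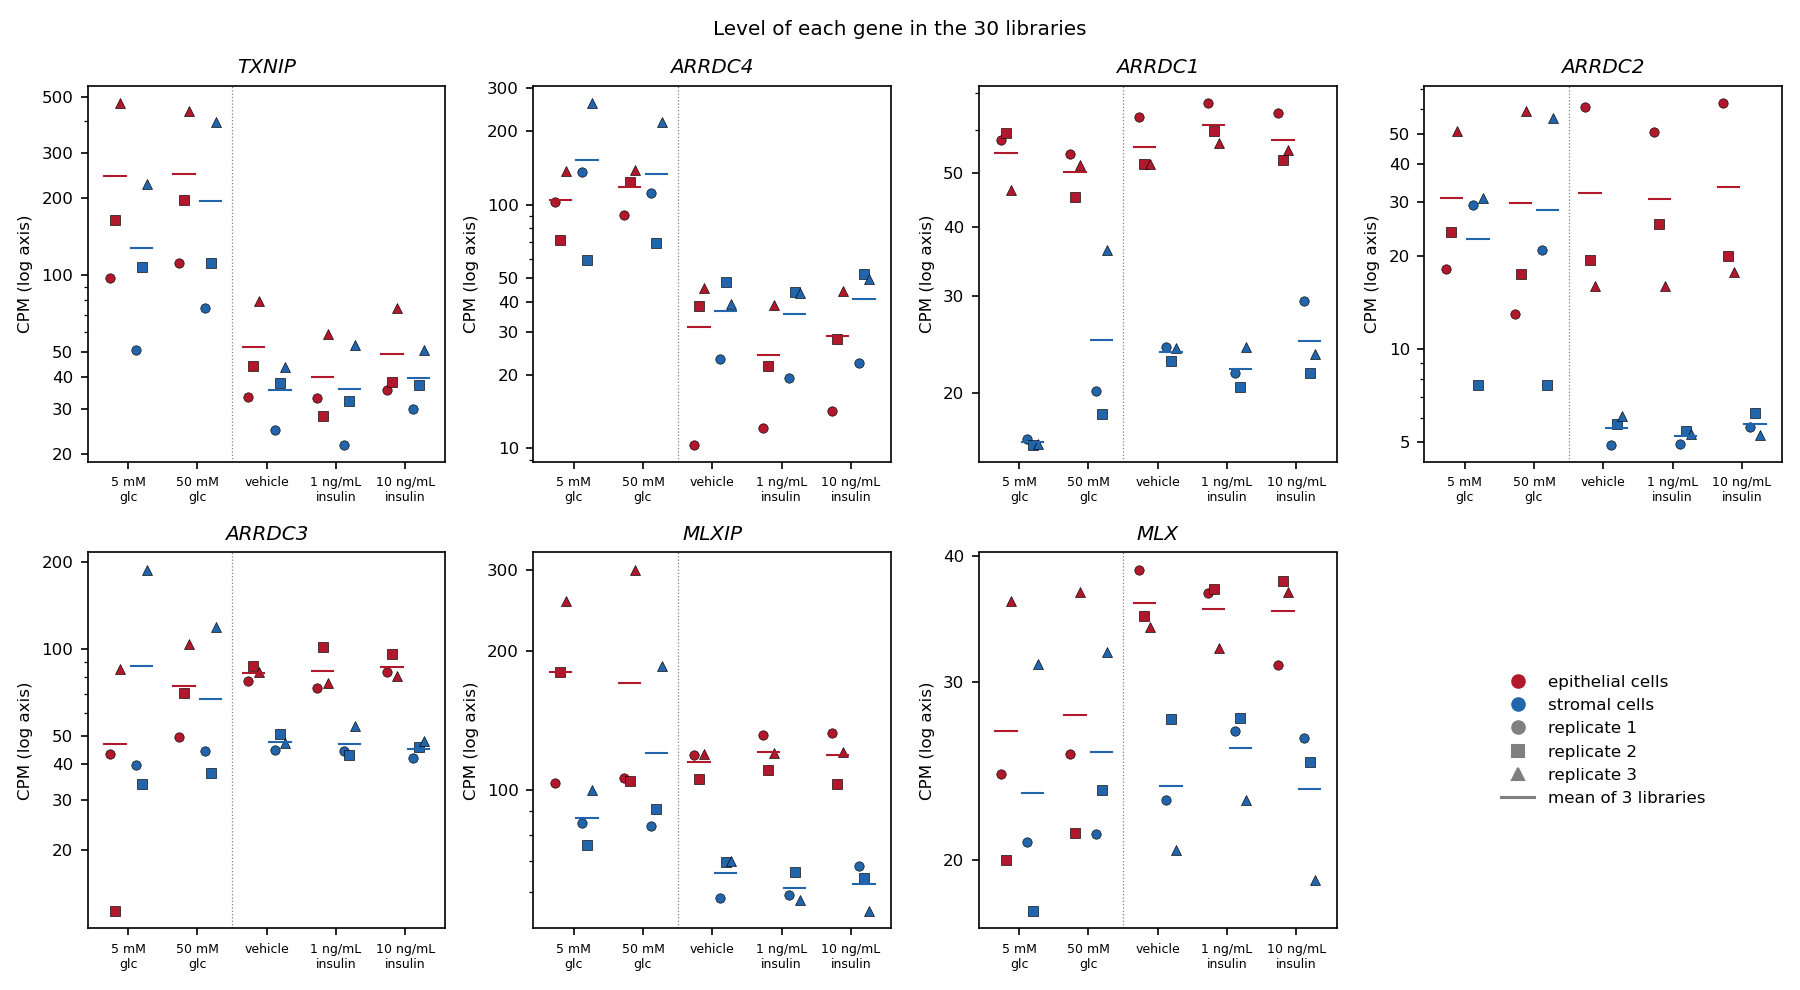
Level of each of the 7 genes in every library (CPM, logarithmic axis), by cell type and treatment, with one point per library and the replicate number marked. Replicate 3 held the highest TXNIP level in 10 of 10 groups, and ARRDC2 stood at 4.90 to 6.23 CPM in the stromal libraries of the insulin experiment.

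The exposure to 50 mM glucose tested whether the genes that report glucose entry respond to a higher supply. None of the 7 genes was called in either cell type by edgeR's quasi-likelihood test (adjusted p under 0.05 with Benjamini-Hochberg adjustment and a log2 fold change beyond 0.1), where the share of protein-coding genes called was 0% in epithelial cells and 0% in stromal cells. At an unadjusted p under 0.05 in edgeR the count was also 0 of 7 in both cell types (1.54% and 4.96% of all genes tested), and DESeq2 called 0 of 7. Here and below, the shares of all genes called are those of edgeR, and the share called by DESeq2 was not counted. The log2 fold change of TXNIP at 50 mM was 0.12 in epithelial cells, with an unadjusted 95% interval of -0.40 to 0.64, and TXNIP was higher in 2 of 3 pairs. In stromal cells it was 0.40, with an interval of -0.10 to 0.91, and TXNIP was higher in 3 of 3 pairs. The stromal libraries of replicate 3, which had the widest gap in TXNIP, held 4384 CPM of epithelial markers at 50 mM against 75.5 CPM at 5 mM. Without replicate 3 the value was 0.26, and the part of these markers in it was not tested. The 95% intervals correspond to a level at 50 mM of 0.760 to 1.56 times the level at 5 mM in epithelial cells and of 0.934 to 1.88 times in stromal cells.

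ARRDC4, the arrestin-domain gene regulated most like TXNIP, had no shared direction in the glucose experiment. Its epithelial levels were 103, 71.8 and 137 CPM at 5 mM and 90.7, 123 and 139 CPM at 50 mM in replicates 1 to 3. Its stromal levels were 136, 59.0 and 261 CPM at 5 mM and 111, 69.8 and 218 CPM at 50 mM. The lowest library was replicate 2 in 3 of the 4 groups, and the groups overlapped. The log2 fold change was 0.21 (95% interval -0.43 to 0.84) in epithelial cells, higher at 50 mM in 2 of 3 pairs, and -0.17 (95% interval -0.57 to 0.23) in stromal cells, lower in 2 of 3 pairs. Without replicate 2, the epithelial value was -0.046.

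ARRDC3, an adaptor of NEDD4-family ligases that regulates the adrenergic receptor and body mass, had the widest change on the log2 scale of the 7 genes in epithelial cells at 50 mM glucose, and it rested on 1 library. The epithelial levels were 43.1, 12.3 and 85.0 CPM at 5 mM and 49.3, 70.2 and 104 CPM at 50 mM. The log2 fold change was 0.96 with a standard error of 0.498 (adjusted p = 0.804 in edgeR), and 3 of 3 pairs were higher, but it was 0.28 without replicate 2, which held the library at 12.3 CPM. In stromal cells, ARRDC3 was at 39.6, 33.9 and 188 CPM at 5 mM and at 44.3, 37.1 and 119 CPM at 50 mM, with a log2 fold change of -0.19 that turned to 0.12 without replicate 3.

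ARRDC1, which takes part in the budding of vesicles from the plasma membrane, was higher at 50 mM glucose in each stromal pair, without being called. Its stromal levels were 16.6, 16.2 and 16.2 CPM at 5 mM and 20.2, 18.4 and 36.3 CPM at 50 mM. The log2 fold change was 0.48 (standard error 0.223, adjusted p = 0.696 in edgeR), and 0.21 without replicate 3. The stromal libraries at 50 mM also held more of the epithelial markers than those at 5 mM in each pair, with 1127, 923 and 4384 CPM against 491, 325 and 75.5 CPM in replicates 1 to 3, and ARRDC1 was higher in epithelial than in stromal cells. The part of these markers in the ARRDC1 difference was not tested. In epithelial cells, ARRDC1 was at 57.3, 59.1 and 46.7 CPM at 5 mM and at 54.1, 45.3 and 51.7 CPM at 50 mM, with a log2 fold change of -0.10.

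ARRDC2, a less studied alpha-arrestin, differed several-fold between replicates at either glucose concentration. In epithelial cells, it was at 18.2, 24.0 and 50.8 CPM at 5 mM and at 13.0, 17.5 and 59.2 CPM at 50 mM (log2 fold change -0.24). In stromal cells, it was at 29.5, 7.67 and 30.9 CPM at 5 mM and at 20.9, 7.64 and 56.1 CPM at 50 mM (log2 fold change 0.06). Replicate 2 of the stromal cells held the lowest ARRDC2 level at both concentrations, and replicate 3 the highest in all 4 groups.

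The transcripts of the glucose-sensing pair were not called either. MLX was at 17.8 to 36.1 CPM at 5 mM and at 21.2 to 36.9 CPM at 50 mM, with log2 fold changes of 0.07 in epithelial and 0.09 in stromal cells, and it was higher at 50 mM in 3 of 3 pairs of both cell types. MLXIP had -0.17 in epithelial cells, from 103, 180 and 257 CPM at 5 mM to 106, 105 and 300 CPM at 50 mM, and turned to 0.17 without replicate 2. In stromal cells, MLXIP had 0.31, from 84.8, 75.9 and 99.7 CPM to 83.5, 90.8 and 186 CPM, and 0.09 without replicate 3. The stromal library of replicate 3 at 50 mM was also the one with 4384 CPM of epithelial markers, and the part of these markers in the MLXIP value was not tested. The MLX row overlaps PSMC3IP, and the MLXIP row a pseudogene, in the RefSeq annotation (ARS-UCD2.0). Whether the counting used the strand of the reads is not given in the sources used here, so reads of such neighbours cannot be told apart.

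The difference of the glucose effect between the cell types was tested with an interaction term over the 12 libraries. No member was called (0% of all protein-coding genes), 0 of 7 had an unadjusted p under 0.05 (7.65% of all genes), and DESeq2 called 0 of 7. TXNIP had a stromal minus epithelial difference of 0.29, with a standard error of 0.289. The difference was -0.37 for ARRDC4, with a standard error of 0.321, and -1.15 for ARRDC3, with a standard error of 0.630. The adjusted p-values were 0.800, 0.788 and 0.740. The ARRDC3 value was -0.56 without replicate 2.

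**Figure D2:**
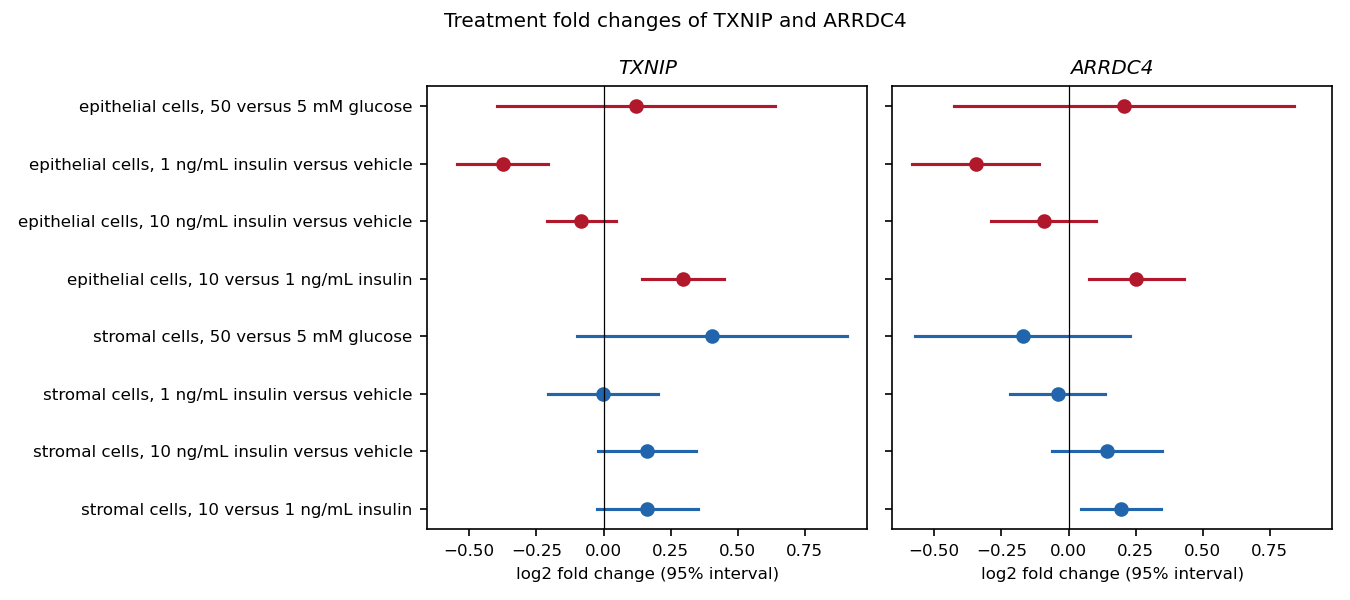
Log2 fold changes of TXNIP and ARRDC4 in the glucose and insulin comparisons of each cell type, with 95% intervals from edgeR's quasi-likelihood fit that are not adjusted for the number of genes. No value passed an adjusted p under 0.05. The interval of TXNIP in epithelial cells at 1 ng/mL insulin against vehicle lay below 0 (-0.54 to -0.21).

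Among the treatments, insulin at 1 ng/mL in epithelial cells gave TXNIP and ARRDC4 their smallest unadjusted p-values against the control, with lower levels of both. TXNIP was at 33.6, 44.2 and 79.5 CPM with vehicle, at 33.0, 28.3 and 59.0 CPM with 1 ng/mL and at 35.6, 38.4 and 74.3 CPM with 10 ng/mL insulin in replicates 1 to 3. It was lower at 1 ng/mL than with vehicle in 3 of 3 pairs, by little in replicate 1, although the groups overlapped. On the log2 scale, TXNIP was at -0.38 against vehicle, with a standard error of 0.081, which is a fold of 0.771 (95% interval 0.686 to 0.866), an unadjusted p of 0.000134 and an adjusted p of 0.356 in edgeR's quasi-likelihood test. The difference did not pass the threshold over all genes. The ratios to vehicle in replicates 1 to 3 were 0.984, 0.639 and 0.741, and the standard error rests in part on a variance shared over genes.

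ARRDC4 moved alongside in 2 of the 3 epithelial pairs. It was at 10.3, 38.2 and 45.6 CPM with vehicle, at 12.1, 21.9 and 38.8 CPM with 1 ng/mL and at 14.3, 28.1 and 44.4 CPM with 10 ng/mL insulin. The log2 fold change at 1 ng/mL against vehicle was -0.35 (standard error 0.113, unadjusted p = 0.00593, adjusted p = 1.00 in edgeR), lower in replicates 2 and 3 and higher in replicate 1. ARRDC1 had an unadjusted p of 0.0448 in edgeR in the same comparison with a log2 fold change of 0.13, higher in 3 of 3 pairs (63.2, 52.0 and 52.0 CPM with vehicle, 67.0, 59.7 and 56.8 CPM with 1 ng/mL). Thus 3 of 7 members had an unadjusted p under 0.05, against 2.87% of all protein-coding genes, while 0 of 7 and 0% of all genes were called with edgeR, and 0 of 7 with DESeq2. Without replicate 1, TXNIP (-0.51, adjusted p = 7.04e-06) and ARRDC4 (-0.48, adjusted p = 0.00108) were called in this comparison by edgeR. This left out the pair in which TXNIP changed least (ratio 0.984) and ARRDC4 was higher (ratio 1.17). The fit then held 2 pairs, so these p-values lean on the variance shared over all genes and are no separate evidence. Neither gene was called without replicate 2 or 3. TXNIP was also called when all genes with at least 1 count were kept in the fit (-0.38, adjusted p = 0.000358 in edgeR). The log2 fold change was near that of the main fit, on the same 3 pairs. That fit differed in the genes that share the variance and the adjustment, so this call is no separate evidence either.

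At 10 ng/mL insulin, the epithelial values were again near the vehicle. TXNIP had a log2 fold change of -0.08 against vehicle (95% interval -0.21 to 0.05) and ARRDC4 -0.09 (95% interval -0.29 to 0.10). By edgeR or DESeq2, 0 of 7 members were called, with 0 of 7 at an unadjusted p under 0.05 in edgeR (0.113% of all genes called by edgeR and 6.78% under that p). Between 1 and 10 ng/mL, TXNIP was higher at the larger dose in 3 of 3 pairs with 0.30 (standard error 0.071, unadjusted p = 0.000817, adjusted p = 0.964 in edgeR), and ARRDC4 in 3 of 3 pairs with 0.25 (standard error 0.083, unadjusted p = 0.0078, adjusted p = 0.983). These were 2 of 7 members at an unadjusted p under 0.05, against 4.29% of all genes, and 0 of 7 called by edgeR or DESeq2, against 0% of all genes by edgeR. Without replicate 1, the pair with the smallest TXNIP difference (ratio 1.08), TXNIP was called from the 2 other pairs (0.37, adjusted p = 0.00899). It was likewise called with all genes of at least 1 count (0.29, adjusted p = 0.0391 in edgeR). This fit held the same 3 pairs as the main fit and a wider set of genes sharing the variance. Neither call is separate evidence. The comparisons at 1 and 10 ng/mL share the vehicle libraries, and those of 10 with 1 ng/mL share the libraries at 1 ng/mL, so these values are not independent of each other.

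In stromal cells, TXNIP was at 24.9, 37.8 and 43.9 CPM with vehicle, at 21.8, 32.4 and 53.3 CPM with 1 ng/mL and at 30.1, 37.4 and 51.1 CPM with 10 ng/mL insulin. The corresponding ARRDC4 levels were 23.2, 48.0 and 39.1 CPM, 19.5, 43.7 and 43.5 CPM, and 22.4, 51.7 and 49.3 CPM. Replicate 1 was the lowest library of both genes in each of these groups. Against vehicle, TXNIP had log2 fold changes of -0.00 at 1 ng/mL (95% interval -0.21 to 0.20) and 0.16 at 10 ng/mL (95% interval -0.02 to 0.35), and ARRDC4 had -0.04 and 0.14. From 1 to 10 ng/mL, TXNIP had 0.16, and ARRDC4 had 0.20 with 3 of 3 pairs higher (standard error 0.068, unadjusted p = 0.0147, adjusted p = 1.00 in edgeR). ARRDC4 was the 1 of 7 members at an unadjusted p under 0.05 there, against 3.68% of all genes, and the counts at 1 and 10 ng/mL against vehicle were 0 of 7 and 0 of 7, against 5.03% and 2.73%. Neither edgeR nor DESeq2 called a member in these 3 stromal comparisons, in which 0%, 0% and 0.0244% of all genes were called by edgeR.

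The difference of the insulin effect between the cell types was not called for any member by edgeR (0% of all genes at either dose) or by DESeq2. TXNIP had a stromal minus epithelial difference of 0.38 at 1 ng/mL (standard error 0.141, unadjusted p = 0.0164, adjusted p = 0.891 in edgeR) and of 0.25 at 10 ng/mL (standard error 0.140, adjusted p = 1). It was the 1 of 7 members at an unadjusted p under 0.05 at 1 ng/mL (5.41% of all genes), and at 10 ng/mL the count was 0 of 7 (4.06%). ARRDC4 had 0.30 and 0.24, respectively. The other 29 log2 fold changes of the remaining members over the 6 insulin comparisons were between -0.16 and 0.15, both from MLX in stromal cells, at 10 against 1 ng/mL and at 1 ng/mL against vehicle, with no unadjusted p below 0.0787.

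**Figure D3:**
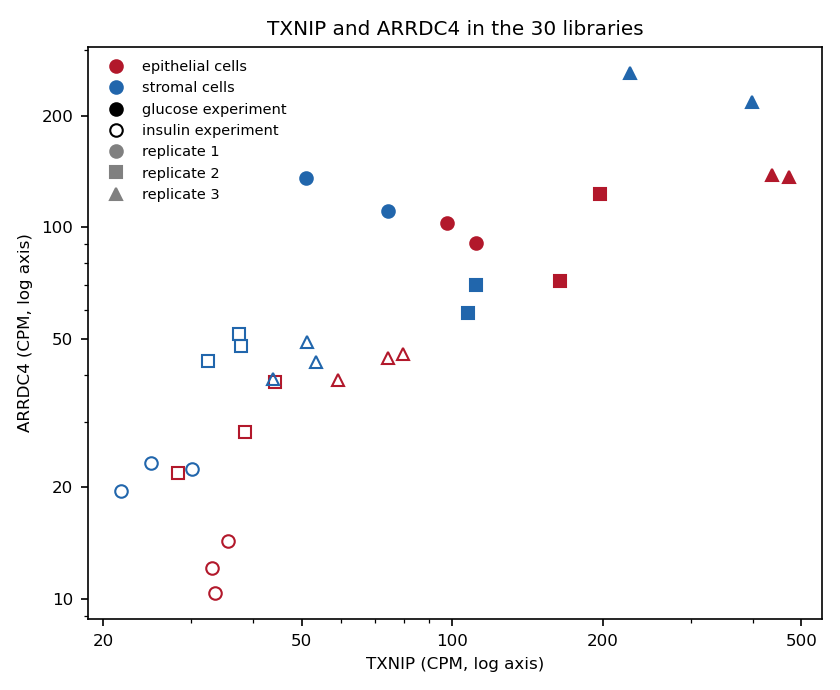
TXNIP against ARRDC4 in the 30 libraries (CPM, logarithmic axes), with cell type and experiment marked. Libraries of the glucose experiment lay at 51.0 to 471 CPM of TXNIP and 59.0 to 261 CPM of ARRDC4, and those of the insulin experiment at 21.8 to 79.5 CPM and 10.3 to 51.7 CPM.

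The replicate number carried most of the variation of TXNIP and ARRDC4. Within each experiment, the variance of log2(CPM + 1) was divided into the parts of the cell types, of the replicate numbers and of the treatments (the last 2 taken within a cell type), and a rest. For TXNIP, 83.5% lay between replicates, 12.0% between cell types and 2.94% between glucose concentrations, and in the insulin experiment 77.7%, 10.6% and 6.77%, respectively. ARRDC4 had 88.0% and 80.2% between replicates in the glucose and insulin experiments. Over all genes, the median part between replicates was 36.9% in the glucose and 16.5% in the insulin experiment, and a larger part than that of TXNIP was found in 3.72% and 4.39% of genes. In the insulin experiment, the largest part of the other 5 genes lay between cell types, from 78.2% for MLX to 95.8% for ARRDC1, with a median over all genes of 71.9%. In the glucose experiment this held for ARRDC1 (84.0%), while ARRDC2 (89.5%), MLX (88.6%), ARRDC3 (69.3%) and MLXIP (55.9%) varied mostly between replicates.

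TXNIP was highest in replicate 3 in 10 of 10 groups and lowest in replicate 1 in 9 of 10, the exception being replicate 2 of the epithelial cells at 1 ng/mL insulin. The highest library of a group was 3.93 to 5.34 times the lowest in the glucose experiment and 1.70 to 2.45 times in the insulin experiment. For ARRDC4, replicate 3 was highest in 7 of 10 groups and replicate 2 in 3. Whether a replicate number marks the same animals in both cell types and experiments was not given, and animal, culture and processing of a replicate cannot be told apart.

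**Figure D4:**
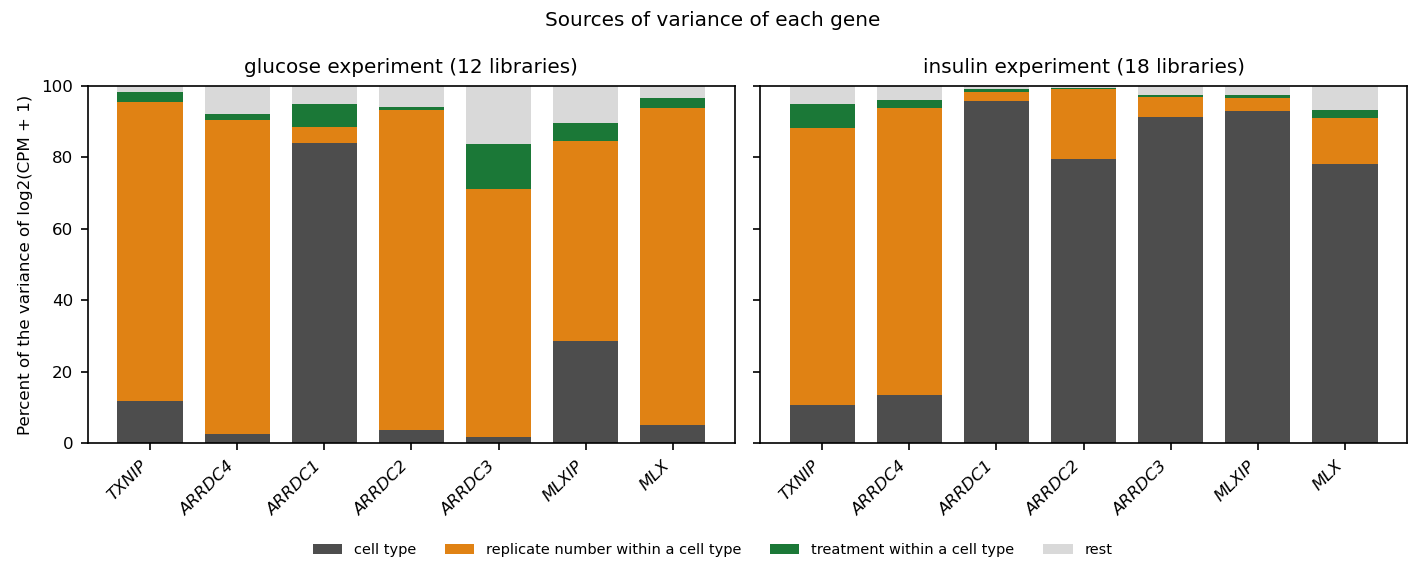
Percent of the variance of log2(CPM + 1) that lay between cell types, between replicate numbers and between treatments (both taken within a cell type), and the rest, for each gene in the glucose (12 libraries) and insulin (18 libraries) experiments. The replicate part made up 83.5% and 77.7% for TXNIP, and ARRDC1 lay mostly between cell types in both (84.0% and 95.8%).

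The genes whose pattern was most like that of TXNIP over the 30 libraries were MT1E (r = 0.81), HSPA2 (0.81), HELB (0.80), RAD54L (0.79) and ZNF3 (0.79), by Pearson's r of log2 CPM among 10574 genes after subtraction of the mean of each cell type in each experiment. The libraries share their replicate numbers, so the values describe this set of libraries. MT1E is a metallothionein, HSPA2 a heat shock protein of the HSP70 family, HELB a DNA helicase, RAD54L a factor of recombination repair and ZNF3 a zinc finger protein. For ARRDC4 these were MAP2K6, a kinase that activates p38 (0.86), SDHC, a subunit of succinate dehydrogenase (0.83), MEX3C, an RNA-binding ubiquitin ligase (0.82), ELK3, an ETS factor (0.80) and SYT4, a synaptotagmin (0.77). TXNIP and ARRDC4 had r = 0.58 with each other, which was exceeded by 1.46% of genes, and r = 0.61, 0.48, 0.78 and 0.84 within glucose epithelial, glucose stromal, insulin epithelial and insulin stromal cells. TXNIP and MLXIP had 0.62 over all libraries, but 0.86 and 0.78 in the glucose strata against -0.28 and 0.16 in the insulin strata, in the same order.

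Between epithelial and stromal cells, ARRDC1, ARRDC2, ARRDC3, MLX and MLXIP were higher in epithelial cells in each of the 3 insulin groups, and ARRDC4 was lower at both insulin doses. With vehicle, 5 of 7 members were called (edgeR, adjusted p under 0.05), against 55.9% of all protein-coding genes. At 1 ng/mL, 6 of 7 were called, against 59.4%, and at 10 ng/mL 6 of 7, against 54.9%. In the glucose experiment, 1 of 7 was called at 5 mM, against 21.5%, and 1 of 7 at 50 mM, against 17.6%. The stromal libraries held 923 to 4384 CPM of epithelial markers at 50 mM, against 75.5 to 491 CPM at 5 mM. The part of these markers in the differences between cell types at 50 mM was not tested.

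ARRDC1 was the member called in all 5 comparisons. Its epithelial libraries lay between 45.3 and 67.0 CPM and its stromal libraries between 16.2 and 36.3 CPM over both experiments. The log2 fold change was 1.51 at 5 mM glucose (standard error 0.314, adjusted p = 0.0213 in edgeR) and 0.93 at 50 mM (standard error 0.210, adjusted p = 0.0409). With vehicle, 1 ng/mL and 10 ng/mL insulin it was 1.14, 1.35 and 1.11, with adjusted p-values of 0.00313, 0.000715 and 0.00186. The call at 5 mM was lost without replicate 1 (adjusted p = 0.0611) and without replicate 3 (adjusted p = 0.118), and that at 50 mM without replicate 1 (0.82, adjusted p = 0.271), without replicate 2 (0.79, adjusted p = 0.0987) and without the replicate block (0.89, adjusted p = 0.0690).

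ARRDC2 had the widest epithelial excess of the 7 genes in the insulin experiment. Its epithelial levels were 61.0, 19.5 and 16.0 CPM with vehicle, 50.6, 25.5 and 16.0 CPM with 1 ng/mL and 62.8, 20.1 and 17.8 CPM with 10 ng/mL insulin, highest in replicate 1 each time. The 9 stromal libraries lay between 4.90 and 6.23 CPM, which corresponded to 53 to 74 reads. The log2 fold changes were 2.22, 2.29 and 2.23, with standard errors of 0.534, 0.362 and 0.467 and adjusted p-values of 0.0227, 0.0034 and 0.0154 in edgeR, and they stayed called with any 1 replicate left out. Without replicate 1 the value with vehicle was 1.44. In the glucose experiment, the cell types overlapped, with 0.34 at 5 mM and 0.03 at 50 mM, neither of which was called. The libraries of both experiments were in separate tables, and the difference between these values was not tested.

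ARRDC3 and MLXIP differed by less than ARRDC2 between the cell types but with little spread between replicates. Over the 3 insulin groups, the epithelial libraries held 73.0 to 102 CPM of ARRDC3 and the stromal libraries 42.0 to 54.0 CPM, with log2 fold changes of 0.72, 0.71 and 0.83 (adjusted p = 0.00443, 0.0177 and 0.00643 in edgeR). MLXIP was at 103 to 133 CPM and 54.6 to 70.0 CPM, with 0.72, 0.87 and 0.82 (adjusted p = 0.0143, 0.00199 and 0.00707). Epithelial and stromal libraries did not overlap for either gene, and the share of all genes without overlap was not counted in any comparison of cell types. ARRDC3 at 1 ng/mL lost its call without replicate 1 (adjusted p = 0.0789). At 5 mM glucose, ARRDC3 had -1.05 (adjusted p = 0.129), with the low epithelial library of replicate 2, and -0.77 without that replicate, and at 50 mM it had 0.14. MLXIP had 0.75 (adjusted p = 0.227) at 5 mM, where the cell types did not overlap, and 0.26 at 50 mM.

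MLX, the shared partner of the Mondo proteins, ranged over 31.2 to 38.8 CPM in the epithelial libraries of the insulin experiment. The stromal ones lay at 19.1 to 27.6 CPM, without overlap, and the share of all genes for which this held was not counted. The log2 fold changes were 0.53, 0.35 and 0.49 with vehicle, 1 ng/mL and 10 ng/mL (adjusted p = 0.0325, 0.0297 and 0.0363 in edgeR). These calls were near the threshold, and that at 1 ng/mL was lost without any 1 of the 3 replicates (adjusted p = 0.0980 to 0.107) and with DESeq2 (adjusted p = 0.0967). The call with vehicle was lost without replicate 1 or 3 (adjusted p = 0.132 and 0.0940), and that at 10 ng/mL without replicate 2 or 3 (adjusted p = 0.121 and 0.159). In the glucose experiment, MLX had -0.02 at 5 mM and -0.04 at 50 mM. Both values turned positive when libraries were scaled by their totals alone (0.20 and 0.11), a scaling that moved the median of all genes by 0.22 and 0.15.

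**Figure D5:**
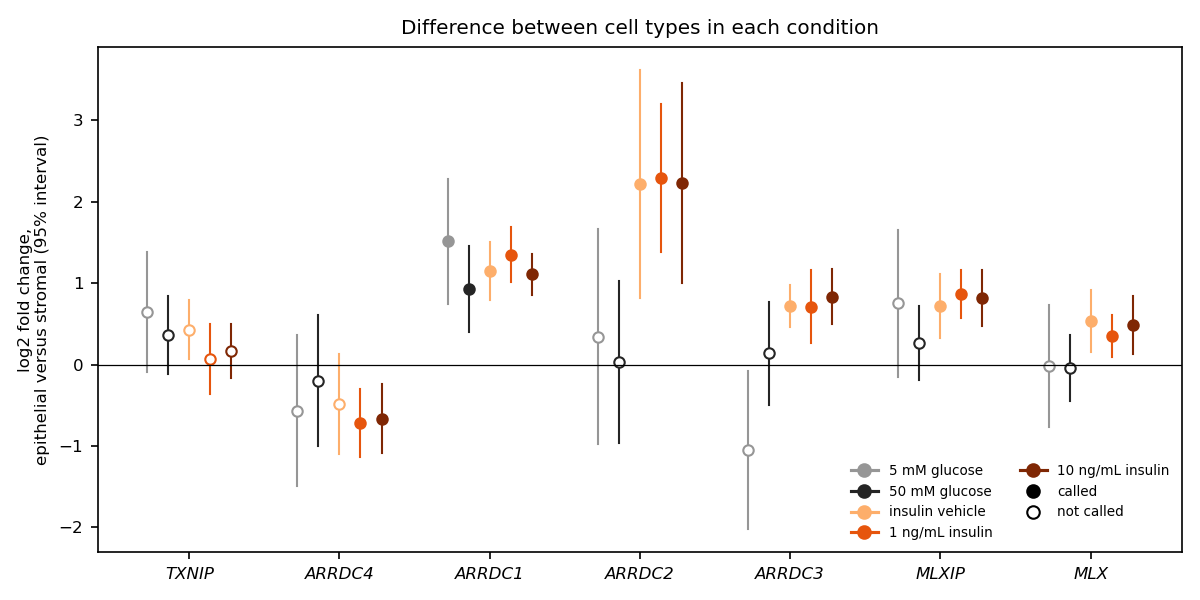
Log2 fold change of epithelial against stromal cells for each gene at the 2 glucose concentrations and in the 3 insulin groups, with 95% intervals from edgeR's quasi-likelihood fit and called values marked. ARRDC1 was called in all 5 comparisons (0.93 to 1.51), ARRDC2 in the 3 insulin groups (2.22 to 2.29), and TXNIP in none.

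In all 5 comparisons of cell types the log2 fold change was negative for ARRDC4 and positive for TXNIP, which was never called in the main fit. The genes were not tested against each other. ARRDC4 was lower in epithelial than in stromal cells in 3 of 3 pairs at 1 ng/mL insulin (-0.72, standard error 0.169, adjusted p = 0.0145 in edgeR) and at 10 ng/mL (-0.67, standard error 0.161, adjusted p = 0.0237), and in 2 of 3 pairs with vehicle (-0.48, adjusted p = 0.143). The calls were lost without the replicate block (adjusted p = 0.229 and 0.281), and the epithelial and stromal libraries overlapped across replicates. They were also lost without replicate 1 (adjusted p = 0.0715 and 0.0647), and at 10 ng/mL without replicate 2 (-0.49, adjusted p = 0.0899). In the glucose experiment ARRDC4 had -0.57 and -0.20, neither called. TXNIP was not called, with 0.65 at 5 mM and 0.36 at 50 mM glucose, and 0.43 (adjusted p = 0.0525), 0.07 and 0.17 in the vehicle, 1 ng/mL and 10 ng/mL groups, although its epithelial library was the higher one in 3 of 3 pairs in 4 of the 5 comparisons. These pairs were read from CPM on library totals. Against the scaling of the fits, library totals raised the median log2 fold change of all genes between cell types by 0.08 to 0.22. At 10 ng/mL, the TXNIP pair of replicate 2 was at 38.4 CPM in epithelial and 37.4 CPM in stromal cells, so its direction may rest on the scaling. With vehicle, TXNIP passed without replicate 2 (0.58, adjusted p = 0.0337 in edgeR).

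Both experiments contain a group at 5 mM glucose for which the methods name no added insulin. TXNIP and ARRDC4 stood at different levels in these groups. In epithelial cells, the mean of TXNIP was 244 CPM at 5 mM of the glucose experiment, against 52.4 ± 24.1 CPM (SD, n = 3) with vehicle in the insulin experiment, a ratio of 4.65. The stromal mean was 128 CPM at 5 mM, against 35.5 ± 9.68 CPM (SD, n = 3) with vehicle, a ratio of 3.61. A higher ratio was found in 0.660% of the 12584 genes compared in epithelial cells and in 2.06% of 12380 genes in stromal cells, where the median ratios on the log2 scale were 0.07 and -0.13.

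The corresponding epithelial means of ARRDC4 were 104 ± 32.7 CPM (SD, n = 3) against 31.4 ± 18.6 CPM (SD, n = 3), a ratio of 3.30. Its stromal means were 152 ± 102 CPM (SD, n = 3) against 36.8 ± 12.6 CPM (SD, n = 3), a ratio of 4.12. For both genes and both cell types, the 3 libraries of the glucose experiment lay above the 3 of the insulin experiment, as they did for 11.4% of all genes in epithelial and 11.0% in stromal cells. ARRDC2 did so in stromal cells (ratio 4.03) and MLXIP in stromal cells (1.32). ARRDC1 in stromal cells went the other way, with a ratio of 0.687 and the 3 libraries of the glucose experiment below the 3 with vehicle. The share of all genes that lay below in this way was not counted. The groups of the remaining members overlapped. In epithelial cells their ratios were 0.976 for ARRDC1, 0.964 for ARRDC2, 0.568 for ARRDC3, 0.747 for MLX and 1.57 for MLXIP, and in stromal cells 1.83 for ARRDC3 and 0.985 for MLX. No test was run across the tables, because medium additions, culture and sequencing of the experiments cannot be told apart.

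Around these members, 35 genes of the pathway were examined by role, of which 34 were matched by symbol and 28 to 32 were tested in a comparison. They were 11 genes of the MYC, MAX and MLX network, 4 other glucose-responsive targets of MondoA, 5 genes of the thioredoxin system, 3 partners or cargo of TXNIP, 7 HECT ubiquitin ligases and 5 other arrestins. In the 8 glucose and insulin comparisons and the 3 differences between cell types, 0 of these genes were called by edgeR, against 0% to 0.113% of all protein-coding genes, and DESeq2 called 0. From 0 to 2 of them had an unadjusted p under 0.05, against 1.54% to 7.65% of all genes. HK2, PFKFB3, LDHA and KLF10, the other targets of MondoA, had median log2 fold changes at 50 mM glucose of -0.14 in epithelial cells and 0.12 in stromal cells, against 0.01 and -0.03 over all genes. The stromal libraries at 50 mM held more epithelial markers (923 to 4384 CPM, against 75.5 to 491 CPM at 5 mM), whose part in the stromal value was not tested. MLXIPL, which encodes the MondoA relative ChREBP, did not exceed 2.80 CPM in any library, and ARRDC5 did not exceed 0.453 CPM.

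Between cell types, the share of pathway genes called lay near that of all genes in the insulin groups. With vehicle, 12 of 29 were higher and 5 lower in epithelial cells, which is 58.6% called, against 55.9% of all protein-coding genes. Among the targets of MondoA, the hexokinase gene HK2 (log2 fold change 2.55), the lactate dehydrogenase gene LDHA (2.02) and PFKFB3 (2.26), which makes an activator of glycolysis, were higher in epithelial cells, as was SLC2A1 (4.42), the gene of GLUT1, and DDIT4 (2.13), an inhibitor of mTORC1 signalling. In the MYC, MAX and MLX network, MYCL (4.06), MXI1 (2.84) and MXD1 (2.25) were higher and MLXIPL (-1.91) was lower. In the thioredoxin system, the reductase gene TXNRD1 (-3.48) and the thioredoxin gene TXN (-1.26) were lower, while the mitochondrial reductase gene TXNRD2 (0.80) was higher. Of the ligases, WWP2 (1.11), NEDD4L (0.80) and SMURF1 (0.78) were higher and NEDD4 (-2.05) was lower, and of the arrestins ARRB1 (-1.83) was lower.

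Of these 17 genes, the 16 other than MLXIPL were also called at 1 and 10 ng/mL insulin, 12 with the higher level in epithelial cells and 4 with the lower. At 1 ng/mL, TXN2 (-0.31) and TXNRD3 (0.62) were called in addition, and at 10 ng/mL MYC (0.37) and MXD4 (-0.51), so that 13 genes were higher and 5 lower at either dose (60.0% and 62.1% called, against 59.4% and 54.9% of all genes). At 5 mM glucose, 3 of 31 genes were higher and 1 lower (12.9% called, against 21.5%), which were MYCL (4.36), MXD1 (1.64), SMURF1 (1.33) and TXNRD1 (-1.89). At 50 mM, 3 of 30 were higher and 2 lower (16.7% called, against 17.6%), which were MYCL (1.89), SMURF1 (0.86), MYC (0.67), TXNRD1 (-1.46) and NEDD4 (-1.32). The stromal libraries at 50 mM held more epithelial markers than those at 5 mM, whose part in these values was not tested. Over the pathway genes tested, the median log2 fold change between cell types was 0.11 and 0.06 at 5 and 50 mM glucose and 0.34, 0.30 and 0.37 in the vehicle, 1 ng/mL and 10 ng/mL groups, against 0.00, 0.03, -0.00, -0.00 and -0.01 over all protein-coding genes.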

How the data were processed

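RNA of epithelial and stromal cells was sequenced as stranded 75 bp single-end libraries. Per the study's methods, the authors trimmed reads with Cutadapt and a FASTX quality filter, mapped the trimmed reads with Rsubread onto the bovine assembly of Ensembl release 96, kept unique reads and counted them with featureCounts. The deposited values were raw counts per gene in 2 tables. The authors' fold changes and p-values were not used, apart from the gene names and types in those files. The build name was not given in the sources used here.

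Each comparison was fitted on its 6 libraries (the differences between cell types on all libraries of a table) with edgeR 4.0.16 in R 4.3.3, with TMM, filterByExpr, the quasi-likelihood test and Benjamini-Hochberg adjustment over all genes tested. The replicate number was a block, since the methods state a paired design, and same-numbered libraries correlated at -0.03 to 0.85. In stromal cells at 50 against 5 mM, the lowest same-numbered r was 0.17 and the highest other-numbered r 0.32. These were -0.03 and 0.30 for stromal 10 ng/mL against vehicle, and 0.03 and 0.06 between cell types at 5 mM. There the numbers did not clearly mark pairs. In the other pairwise comparisons, every same-numbered r was the higher. A gene was called at an adjusted p under 0.05 and a log2 fold change beyond 0.1, and shares over all genes count protein-coding genes. Shares of genes called were counted for the main edgeR fits only. Standard errors come from the F statistic, whose variance is moderated over all genes tested. A count of 0 would allow up to 3 counts (0.180 to 0.340 CPM), for counting error only. The genes named outside the 7 were those called in a list fixed by role, and the 5 most correlated with TXNIP and with ARRDC4. Genes and lists were chosen with earlier results of these data known. Alternatives were RLE (DESeq2's size factors), library totals, no filter, DESeq2 1.42.0, no block, one fit per table and leaving out each replicate number. RefSeq (ARS-UCD2.0) served for overlapping genes only.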

Additional observations from a re-analysis of the deposited data

How the results depend on the processing

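With RLE factors, library totals, no filter, DESeq2, no replicate block, one fit per table or a replicate left out, no called value changed direction, and 70, 67, 67, 70, 66, 60 (of 64), 58, 56 and 63 of 71 log2 fold changes kept direction and call (without replicates 1, 2 and 3 last). The members called rose from 0 to 1 when all genes with at least 1 count were kept, for epithelial 1 ng/mL insulin against vehicle and for 10 against 1 ng/mL (TXNIP in both). These fits held the same pairs as the main fit, so the calls are no separate evidence. At 5 mM glucose, one fit over all libraries called 2 members between cell types (TXNIP in addition, 0.64, adjusted p = 0.0278 in edgeR), and at 50 mM 0 were called with no replicate block. The block made little difference to the direction of other values, and without it the calls of ARRDC4 between cell types were lost. With a replicate left out, 0 to 2 members were called at 1 ng/mL against vehicle and 0 to 1 at 10 against 1 ng/mL in epithelial cells, and between cell types 0 to 1 at 5 mM, 0 to 1 at 50 mM and 3 to 5 at 1 ng/mL insulin. For none of the alternatives was the share of all genes called counted, so it is not known whether these counts differ from it. TXNIP between cell types with vehicle was called with RLE (0.44, adjusted p = 0.0473), library totals (0.51, 0.0454) and one fit per table (0.40, 0.0252), and in the last ARRDC4 was too (-0.48, 0.0411). ARRDC4 at 10 ng/mL was not called with library totals (-0.56, 0.0502), and MLX was not with all genes kept (0.46, 0.0558).

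Of the pathway genes, 1 was called at 1 ng/mL against vehicle in stromal cells with all genes kept. Between cell types at 5 mM, 8 were called with DESeq2, 7 with no replicate block and 11 with one fit per table, and at 50 mM 8, 0 and 3. The share of all genes called was not counted under any alternative, so these counts cannot be set beside it. With a replicate left out, 0 to 2 and 0 to 1 were called in epithelial cells at 1 ng/mL against vehicle and at 10 against 1 ng/mL, 0 to 1 in either stromal comparison, 4 to 8 between cell types at 5 mM and 0 to 8 at 50 mM.

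Values near 0 turned sign. TXNIP in stromal cells at 1 ng/mL against vehicle was 0.0018 with all genes kept, 0.038 with no replicate block, 0.0085 with one fit per table and -0.18 to 0.12 with a replicate left out. Between cell types, MLX turned to 0.20 and 0.11 with library totals at 5 and 50 mM, and ARRDC2 at 50 mM to -0.049 with no replicate block. Leaving out a replicate gave, for 50 against 5 mM in epithelial cells, -0.24 to 0.067 for ARRDC1, -0.046 to 0.36 for ARRDC4 and -0.38 to 0.17 for MLXIP. In stromal cells it gave -0.31 to 0.33 for ARRDC2 and -0.39 to 0.12 for ARRDC3. ARRDC4 was -0.20 to 0.11 at 10 ng/mL against vehicle in epithelial and -0.16 to 0.019 at 1 ng/mL in stromal cells. Between cell types the ranges were -0.23 to 0.98 for ARRDC2 and -0.037 to 0.0056 for MLX at 5 mM. At 50 mM they were -0.47 to 0.53 for ARRDC2, -0.19 to 0.35 for ARRDC3, -0.64 to 0.080 for ARRDC4 and -0.12 to 0.058 for MLX, and at 1 ng/mL -0.15 to 0.24 for TXNIP. The cause of these changes was not tested. With 3 pairs and the spread of the glucose libraries, intervals of TXNIP at 50 mM still held a level of 1.56 times the control in epithelial and of 1.88 times in stromal cells.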
